A study of Mus musculus with 4 samples.

Results

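The genes described here encode the subunits, activators and assembly chaperones of the proteasome and the proteins that carry its peptides onto MHC class I molecules. They were chosen by symbol, as genes named Psma, Psmb, Psmc, Psmd or Psme together with Tap1, Tap2, Tapbp, B2m, Erap1, Calr, Canx and Pdia3. A gene was kept if a probe set carrying its symbol alone reached a log2 value of 6.5 on at least 1 array, and the brightest such probe set stood for it. This gave 51 genes of the 9894 genes tested. The measurements come from 4 mice of 6 weeks, 1 Affymetrix array each, of RNA from sorted splenic Esam dendritic cells (DC), a CD11c and MHC class II positive population. The cKO mice (n = 2, genotype DCRunx3 -/-) had lost the transcription factor Runx3 through Cre driven by the CD11c promoter, and the wt mice (n = 2, DCRunx3 +/+ in the labels) were their littermates, with 1 mouse of each genotype in each of 2 litters. The study elsewhere describes its controls as Runx3fl/fl and as littermates negative for Cre, while the labels of these arrays do not say whether the wt mice carried floxed alleles or Cre. The question asked of these genes was whether loss of Runx3 altered them and whether constitutive and immunoproteasome subunits responded differently.

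The proteasome is a barrel of alpha and beta rings that degrades ubiquitinated proteins into peptides, capped by a regulatory particle whose ATPases unfold the substrate. In immune cells, and in others after interferon gamma, the catalytic subunits Psmb6, Psmb7 and Psmb5 are exchanged for Psmb9, Psmb10 and Psmb8, and DC are known for high immunoproteasome content. Peptides are then pumped into the endoplasmic reticulum by Tap1 and Tap2, trimmed by Erap1 and loaded onto class I heavy chains bound to B2m with the help of Tapbp, Calr and Pdia3.

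The sequences just upstream of the catalytic subunit genes are shown because these genes are the pair of sets being compared. Psmb7 is not shown, because no promoter window was found for it. RefSeq promoter windows of assembly GRCm38.p6 were found for 44 of the 51 genes, and the 250 bases before each start were searched on both strands for short motifs, in which N stands for any base. The Runx motif TGTGGT was present in 9 of the 44 genes (20.5%), against 14% of all 32851 windows. Capitals mark every match to the Runx motif, the gamma-activated site (TTCNNNGAA), the interferon-stimulated response element (GAAA, any 2 bases, then GAAA), the antioxidant response element (TGACNNNGC) and the GC box (GGGCGG). No matches overlapped in the stretches printed.
Psmb5, chr14:54617996-54618245, minus strand: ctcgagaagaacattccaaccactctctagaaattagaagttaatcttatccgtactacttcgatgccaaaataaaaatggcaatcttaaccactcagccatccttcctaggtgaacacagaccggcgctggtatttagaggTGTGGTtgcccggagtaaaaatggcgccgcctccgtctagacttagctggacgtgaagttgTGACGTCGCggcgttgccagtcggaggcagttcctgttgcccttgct
Psmb6, chr11:70525107-70525356, plus strand: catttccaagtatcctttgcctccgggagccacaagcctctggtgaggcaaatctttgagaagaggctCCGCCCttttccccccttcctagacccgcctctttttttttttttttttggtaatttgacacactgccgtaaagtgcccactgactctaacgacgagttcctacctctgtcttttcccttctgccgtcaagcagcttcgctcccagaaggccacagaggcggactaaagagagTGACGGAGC
Psmb8, chr17:34197945-34198194, plus strand: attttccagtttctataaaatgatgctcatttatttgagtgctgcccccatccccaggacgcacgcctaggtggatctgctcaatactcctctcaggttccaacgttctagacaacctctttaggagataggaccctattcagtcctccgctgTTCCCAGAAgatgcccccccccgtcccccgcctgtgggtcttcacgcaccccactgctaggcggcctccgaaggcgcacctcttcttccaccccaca
Psmb10, chr8:105938393-105938642, minus strand: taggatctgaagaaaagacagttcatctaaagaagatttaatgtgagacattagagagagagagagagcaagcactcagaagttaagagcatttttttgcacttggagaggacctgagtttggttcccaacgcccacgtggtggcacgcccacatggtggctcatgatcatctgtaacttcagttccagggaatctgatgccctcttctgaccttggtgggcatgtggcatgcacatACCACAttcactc
Psmb9 and Tap1, the stretch between their divergent starts, chr17:34187331-34187555, plus strand: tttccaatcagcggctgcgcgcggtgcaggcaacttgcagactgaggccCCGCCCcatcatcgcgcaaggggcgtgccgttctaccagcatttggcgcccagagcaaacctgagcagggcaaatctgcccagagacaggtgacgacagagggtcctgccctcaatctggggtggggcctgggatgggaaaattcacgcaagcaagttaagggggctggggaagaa

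In these stretches Psmb5 and Psmb10 held a Runx motif, 103 to 108 and 8 to 13 bases before their starts. Psmb8 was the only one of the 44 genes with a gamma-activated site, against 7.02% of all windows. Psmb5 and Psmb6 held an antioxidant response element, a sequence bound by the Nfe2l2 protein, which 7 of the 44 genes (15.9%) and 10.2% of all windows contained. Psmb9 and Tap1 share 225 bases between their starts, and a single GC box lay there. GC boxes were in 27 of the 44 genes (61.4%) and in 32.7% of all windows, and interferon-stimulated response elements in 4 of the 44 genes (B2m, Psmb3, Psmd4 and Psmd9), against 2.98% of all windows. A match of letters is not a measured binding site.

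Before the results, the labels were set against the arrays. The labels call all 4 mice male, whereas sex-linked genes split them by litter. Xist, the RNA of the inactive X chromosome, read 12.78 in the cKO mouse and 12.75 in the wt mouse of litter 1, against 5.19 and 5.15 in those of litter 2. Kdm5d, a Y-linked demethylase, ran the other way, with 5.19 for cKO and 5.27 for wt in litter 1, against 9.89 for cKO and 9.84 for wt in litter 2. Sex and litter cannot be told apart, but each litter holds both genotypes. The Runx3 probe set read 11.47 and 11.45 in cKO, against 11.37 and 11.51 in wt, and since its probes are not placed relative to the deleted part of the gene, it does not check the deletion. The 6 DC markers were all measured, with 3 higher and 3 lower in cKO and a median difference of 0.00. They ran from -0.28 (Zbtb46) to 0.12 (Itgax). Cd3d, Cd3e, Cd3g and Cd247 of the T cell list were below 6.5 on every array. Cd5, the other measured gene of that list, was above it, at 9.36 and 9.07 in cKO, against 9.49 and 9.30 in wt. Markers of several other cells were higher in cKO. The median difference was 1.05 for the list of cDC1 genes (9 of 10 higher), 0.76 for macrophage genes (13 of 13) and 0.44 for monocyte genes (6 of 6). It was 0.42 for plasmacytoid DC genes (6 of 7) and 0.43 for B cell genes (3 of 3). Esam, Cd4 and Cd8a, surface markers of DC subsets, were higher in cKO by 0.36, 0.36 and 1.46. In sorted bulk RNA, a difference in the share of a cell type and a difference in RNA per cell, in either direction, cannot be told apart.

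No gene of the proteasome and class I set passed the adjusted limma threshold or the thresholds of the methods for a change with genotype. In the limma fit of cKO minus wt, 0 of 51 passed an adjusted p of 0.05 (0% of the 18889 probe sets tested), and 0 of 51 had an unadjusted p under 0.05 (9.38% of all tested). The thresholds of the methods, a fold of at least 1.5 with a p of at most 0.05 in the one-way test, also called 0 of 51 (1.41% of all tested). By the p of that one-way test alone, unadjusted and under 0.05, 3 of 51 passed (8.24% of all tested). The smallest adjusted p was 0.5385, for Erap1. Differences ran from -0.30 (Psma7) to 0.21 (Psmb3) on the log2 scale, with a median standard error of 0.0946.

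The intervals bounded the size of most changes. For 48 of the 51 genes the 95% interval of the difference lay inside a 1.5-fold change in either direction (0.585 on the log2 scale). The same held for 69% of all probe sets tested. The exceptions were Psma7, an alpha ring subunit, Psmb5, the constitutive chymotrypsin-like subunit, and Psmb3, a structural beta subunit. The 51 genes were brighter, with a median log2 level of 10.61, against 8.85 over all probe sets. How far this narrowed their intervals was not tested. Of the 51 genes, 37 were lower and 14 higher in cKO, with a median difference of -0.06, against -0.02 and 55.1% lower over all probe sets. Both cKO arrays lay below both wt arrays for 20 of 51 genes (23.7% of all tested) and above them for 1, Calr (16.4% of all tested). Subunits of 1 complex are not independent of each other, and the share was not tested.

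**Figure D1:**
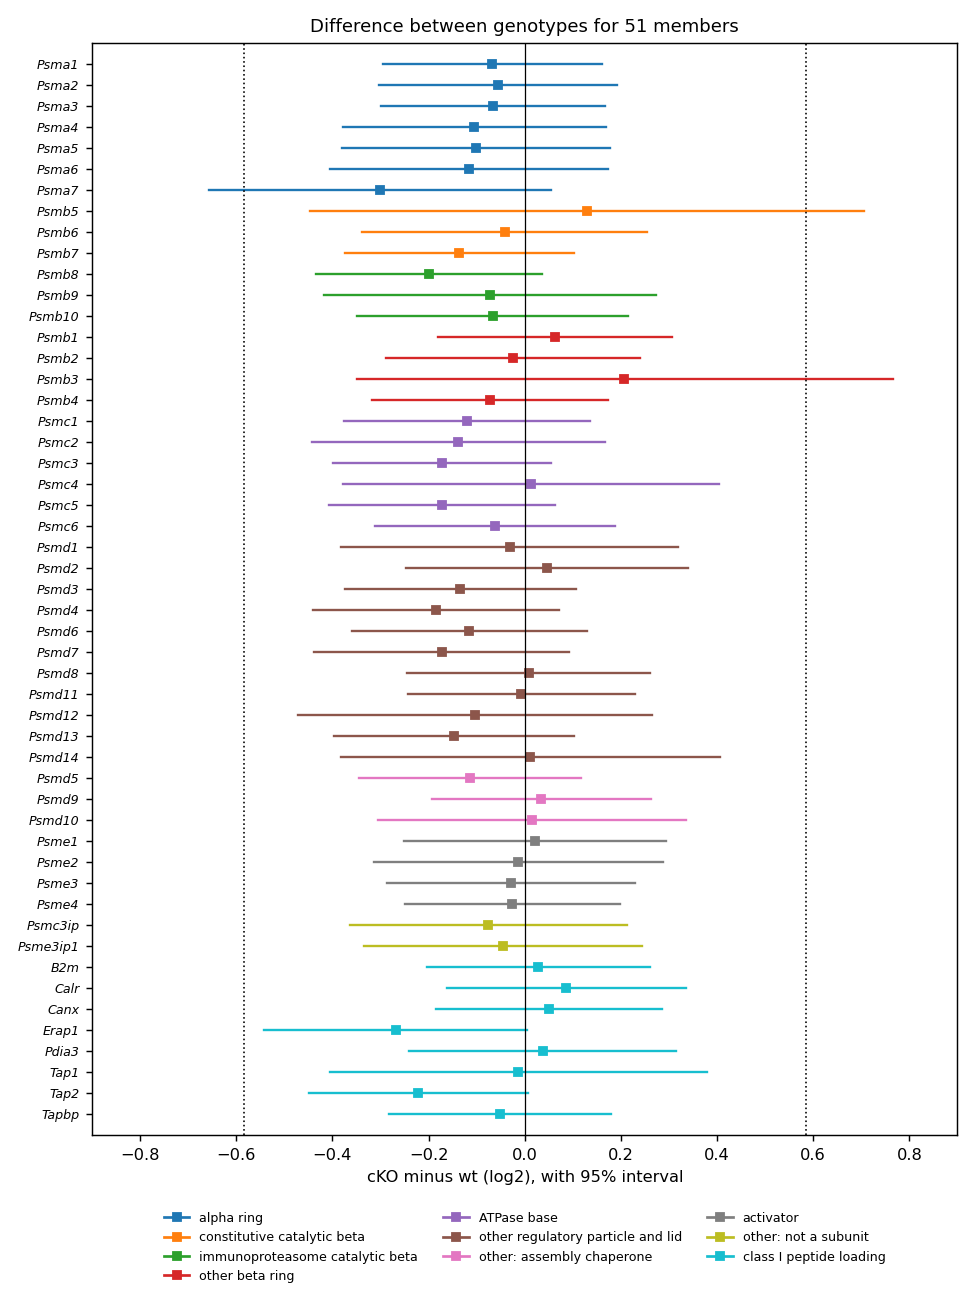
Difference of cKO minus wt (log2) for each of the 51 genes, ordered and coloured by role, with 95% intervals from limma. Dotted lines mark a 1.5-fold change, which only the intervals of Psma7, Psmb5 and Psmb3 cross.

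The catalytic subunits were all well expressed in Esam DC of both genotypes. Psmb8, the immunoproteasome subunit with chymotrypsin-like activity, read 10.75 and 10.70 in cKO, against 10.96 and 10.89 in wt. Both cKO arrays were below both wt arrays, and the difference of -0.20 ± 0.09 (SE, 95% interval -0.43 to 0.04) did not pass (limma adjusted p = 0.5961). Psmb9, which replaces Psmb6, read 11.15 and 11.08 in cKO, against 11.33 and 11.05 in wt, and Psmb10, which replaces Psmb7, read 11.05 and 11.01 in cKO, against 11.19 and 11.01 in wt. For both genes the wt mouse of litter 1 was the highest, the genotypes overlapped, and the difference was -0.07 (intervals -0.42 to 0.27 and -0.35 to 0.21).

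Among the constitutive subunits, Psmb6, the caspase-like subunit, read 9.82 and 9.74 in cKO, against 9.92 and 9.72 in wt, a difference of -0.04. Psmb7, the trypsin-like subunit, read 10.25 and 10.30 in cKO, against 10.45 and 10.37 in wt. The cKO arrays of Psmb7 were the lower ones, by -0.14 ± 0.09 (SE), which did not pass (adjusted p = 0.7375). Psmb5 read 11.64 and 11.59 in cKO, against 11.77 and 11.20 in wt. Here the wt mice were on either side of the cKO mice, and the direction rested on the wt mouse of litter 2. The difference was 0.13 ± 0.21 with all arrays and -0.15 without that mouse.

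**Figure D2:**
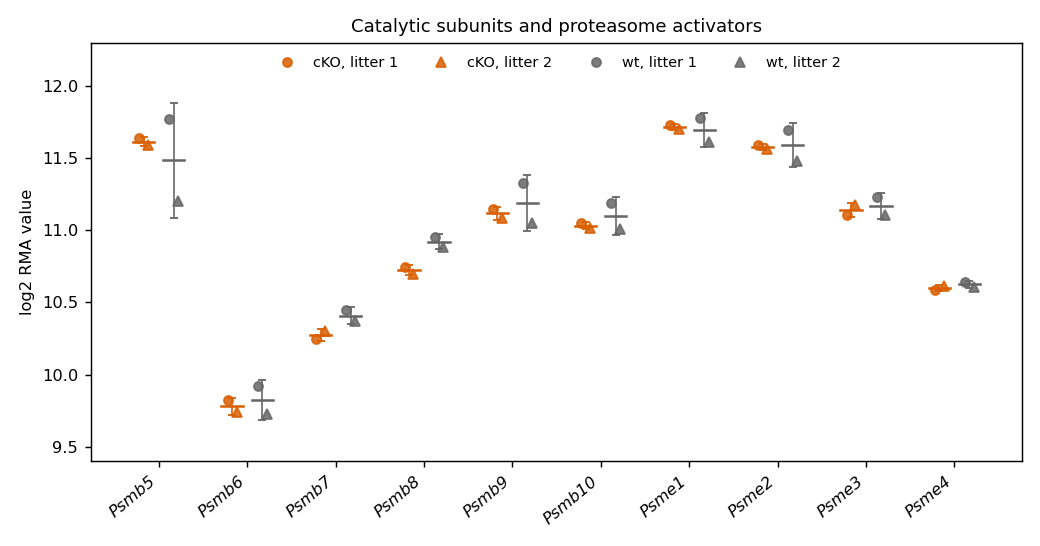
Log2 RMA values of the catalytic subunits and the activators in cKO (orange) and wt (grey) mice, circles for litter 1 and triangles for litter 2, with the group mean and SD (n = 2 each). The wt mice differ most from each other in Psmb5, at 11.77 and 11.20.

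To ask whether the immunoproteasome set moved apart from the constitutive one, the mean of Psmb8, Psmb9 and Psmb10 minus the mean of Psmb5, Psmb6 and Psmb7 was taken on each array. Only the change of this gap between arrays has a meaning, because the levels of different probe sets cannot be compared. Relative to the wt mean, the gap was -0.08 and -0.11 in cKO, and -0.05 and 0.05 in wt. The gap differed by -0.10 (cKO minus wt), being -0.03 in litter 1 and -0.16 in litter 2 (SD 0.0934 between litters). With 2 mice against 2 an exact permutation test cannot give a p below 0.3333, and none was taken.

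The pairs of exchanged subunits did not share a direction. The gap of Psmb8 over Psmb5 differed by -0.33, being -0.08 in litter 1 and -0.58 in litter 2, and without the wt mouse of litter 2 it was -0.08. The gap of Psmb9 over Psmb6 differed by -0.03, and that of Psmb10 over Psmb7 by 0.07. Most of the shift of the whole gap therefore lay in the pair of Psmb8 and Psmb5, which differed by -0.20 and 0.13.

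The other subunits of the barrel also stayed within small differences. All 7 alpha ring genes were lower in cKO (55.1% of all tested), with a median of -0.10. Of these, 5 had both cKO arrays below both wt arrays (23.7% of all tested). Psma7 had the lowest difference of the 51 genes. It read 9.59 and 9.50 in cKO, against 9.70 and 9.99 in wt, a difference of -0.30 ± 0.13 (SE, interval -0.66 to 0.05, adjusted p = 0.5974). The cKO mice were close together, and the wt mouse of litter 2 stood above the others.

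Psma5 was the alpha ring gene whose probe sets disagreed most in size. Its brightest probe set gave 8.88 and 8.79 in cKO, against 9.01 and 8.86 in wt, a difference of -0.10, and the other gave 8.73 and 8.70 in cKO, against 8.97 and 9.09 in wt, a difference of -0.32. The second interval, -0.56 to -0.07, left out 0, with a limma unadjusted p of 0.02376 and an adjusted p of 0.4552. Psma5 was singled out after its values were seen. For the other 4 genes with several probe sets (Psma3, Psmb3, Psmc1 and Psmd2) these had the same sign. Proteasome genes have near-identical copies elsewhere in the genome, and how far these add to a probe set was not tested.

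Of the structural beta subunits, Psmb3 had the highest difference of all 51 genes, 0.21 ± 0.20 (SE). It read 12.72 and 12.59 in cKO, against 12.71 and 12.18 in wt. As for Psmb5, the wt mouse of litter 2 was the low one, and without it the difference was -0.06. Psmb1, Psmb2 and Psmb4 lay between -0.07 and 0.06. Psmb11, the thymus-specific catalytic subunit, was below 6.5 on all arrays, at 5.56 and 5.57 in cKO and at 5.46 and 5.42 in wt, and so was Psma8, the alpha subunit of the testis, whose highest value was 6.48. Both genes are known for that tissue restriction, and neither was tested.

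In the regulatory particle, the ATPases of the base were lower in cKO for 5 of 6 genes (55.1% of all tested), with a median of -0.13. For 4 of them the cKO arrays lay below the wt arrays (23.7% of all tested). Psmc3 read 8.51 and 8.48 in cKO, against 8.65 and 8.69 in wt, a difference of -0.17 ± 0.08 (SE, adjusted p = 0.6381). Psmc5 read 8.25 and 8.19 in cKO, against 8.37 and 8.42 in wt, also a difference of -0.17. Psmc4 was the exception, with wt mice on both sides of the cKO mice and a difference of 0.01.

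The other subunits of the regulatory particle and lid were lower in 8 of 11 genes (55.1% of all tested), with a median of -0.10. Of these, 5 had both cKO arrays below both wt arrays (23.7% of all tested). Psmd4, a ubiquitin receptor, read 9.54 and 9.41 in cKO, against 9.64 and 9.68 in wt, and Psmd7, a lid subunit, read 9.82 and 9.73 in cKO, against 9.89 and 10.01 in wt. Their differences were -0.18 and -0.17 (adjusted p = 0.6569 and 0.6914). Psmd14, the deubiquitinase of the lid, read 11.67 and 11.60 in cKO, against 11.79 and 11.45 in wt, a difference of 0.01 with the wt mice on either side. Psmd2, a scaffold subunit, had the highest difference of the group at 0.05. The assembly chaperones Psmd5, Psmd9 and Psmd10 differed by -0.11, 0.03 and 0.01.

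The activators were the most even group between genotypes. Psme1 and Psme2 form the interferon-inducible activator ring that opens the barrel without ATP, and they differed by 0.02 and -0.01. Psme1 read 11.73 and 11.70 in cKO, against 11.78 and 11.61 in wt, and Psme2 read 11.59 and 11.56 in cKO, against 11.70 and 11.48 in wt. Psme3, the nuclear activator, and Psme4, which acts in the nucleus on acetylated histones, each differed by -0.03. In all 4 the wt mouse of litter 1 was the highest and the groups overlapped. Psmc3ip and Psme3ip1, partners by name that are not subunits, differed by -0.08 and -0.05.

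The genes of class I peptide loading were split, 4 lower and 4 higher in cKO, with a median of 0.01. The largest differences were in peptide trimming and transport. Erap1, the aminopeptidase that trims peptides in the endoplasmic reticulum, read 9.62 and 9.55 in cKO, against 9.78 and 9.93 in wt. Tap2, a chain of the peptide transporter, read 9.35 and 9.33 in cKO, against 9.59 and 9.53 in wt. Both genes were lower in each cKO mouse than in either wt mouse and in both litters. The differences were -0.27 ± 0.10 for Erap1 and -0.22 ± 0.08 for Tap2 (SE), with limma unadjusted p of 0.05216 and 0.05387 and adjusted p of 0.5385 and 0.5415. In a fit with only the brightest probe set of each gene, their unadjusted p fell under 0.05 but no member passed (smallest adjusted p 0.3191, 0.424% of genes called).

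Tap1, the other chain of the transporter, read 11.65 and 11.48 in cKO, against 11.73 and 11.43 in wt. Its wt mice were the highest and the lowest array, so that the difference was -0.01 with an interval of -0.41 to 0.38. Tapbp, or tapasin, which bridges the transporter and class I molecules, differed by -0.05. Its probe set carried Tapbp alone, and 2 others shared with Rps3a1 were not used.

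B2m, the light chain of class I, read 14.14 and 14.09 in cKO, against 14.06 and 14.11 in wt. The genotypes overlapped, and the difference of 0.03 had an interval of -0.20 to 0.26. Calr, a chaperone of the loading complex, read 12.21 and 12.33 in cKO, against 12.18 and 12.18 in wt. It was the only gene of the 51 with both cKO arrays above both wt arrays, by 0.09 ± 0.09 (SE, adjusted p = 0.8398). Canx and Pdia3, a membrane-bound chaperone and a thiol oxidoreductase of class I folding, differed by 0.05 and 0.04.

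**Figure D3:**
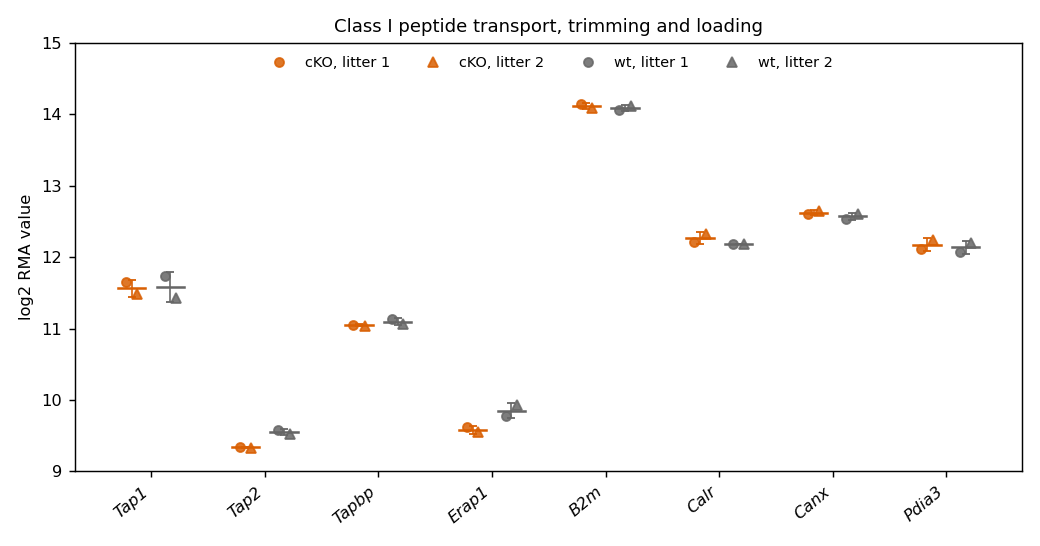
Log2 RMA values of the peptide transport, trimming and loading genes in cKO (orange) and wt (grey) mice, circles for litter 1 and triangles for litter 2, with the group mean and SD (n = 2 each). Tap2 and Erap1 lie lower in both cKO mice, while B2m stays between 14.06 and 14.14.

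The share of genes lower in cKO was smaller in litter 2 than in litter 1, as it was over all probe sets. In litter 1, 43 of 51 genes were lower in cKO (84.3%, against 61.8% of all probe sets), with a median of -0.10. In litter 2, 25 of 51 were lower (49.0%, against 48.1% of all), with a median of 0.00. The sign was opposite between litters for 22 genes (43.1%, against 42.3% of all), among them Psmb5, Psmb9, Psmb10, Tap1 and all 4 activators. Psmb8, Psmb7, Psma7, Tap2 and Erap1 were lower in cKO in both litters, as were 23 genes in all (45.1%, against 33.8%).

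**Figure D4:**
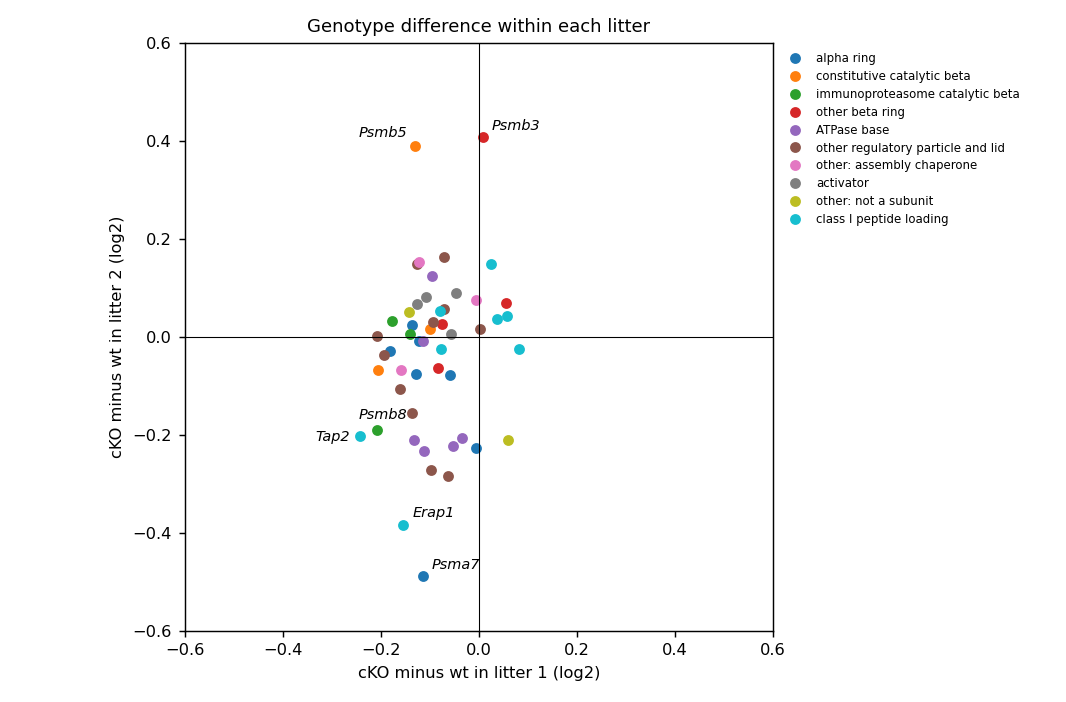
Difference of cKO minus wt (log2) within litter 1 (horizontal axis) and within litter 2 (vertical axis), 1 point per gene, coloured by role. Most points lie left of 0, lower in cKO in litter 1, while in litter 2 they lie on both sides.

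The wt mice differed more from each other than the cKO mice did. The absolute difference between the wt arrays had a median of 0.125 and that between the cKO arrays a median of 0.0559, and 42 of 51 genes were wider in wt (82.4%, against 64.4% of all probe sets). The wt mouse of litter 1 was the highest array for 33 of 51 genes (64.7%, against 36.5% of all), and the wt mouse of litter 2 the lowest for 20 (39.2%, against 33.8%). Without the wt mouse of litter 1, 27 of 51 genes were lower in cKO and the median difference was 0.00, and without the wt mouse of litter 2, 44 were lower and the median was -0.12. The size of the lean towards lower values in cKO therefore varied with the wt array left out. The same counts over all probe sets were not taken. Both cKO arrays lay below both wt arrays for 20 of 51 genes (39.2%, against 23.7% of all). By that definition these genes stay lower whichever wt array is left out, so this is not a test of them.

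**Figure D5:**
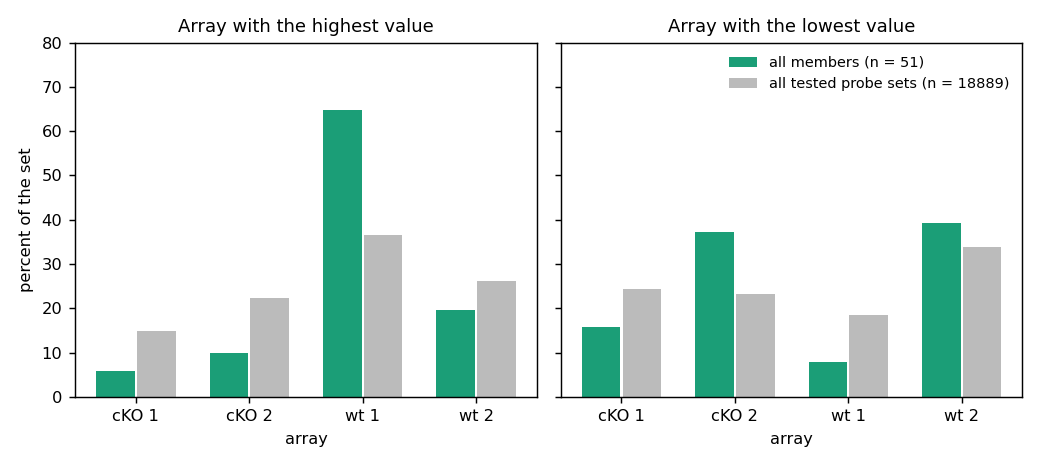
Share of the 51 genes (green) and of all 18889 tested probe sets (grey), in percent, whose highest (left) or lowest (right) value was on each array. The wt 1 array was the highest for 64.7% of the genes, against 36.5% of all probe sets.

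Tap1 and Psmb9, which share the printed stretch, had the same order of arrays, from the wt mouse of litter 1 over cKO 1 and cKO 2 to the wt mouse of litter 2. The order was found for 13 of 51 genes (25.5%, against 9.21% of all probe sets), including Psmb5, Psmb10, Psme1 and Psme2. It was taken from the values of Tap1 and Psmb9, which are counted among the 13, so the share is raised by the choice. The list of interferon-stimulated genes had array means in the same order, at 9.70 and 9.65 in cKO, against 9.95 and 9.46 in wt. Only Mx1, Gbp3 and Gbp5 of the list had that order themselves. In Ifit1, Ifit2, Ifit3, Irf7, Oasl2, Usp18, Gbp4 and Rtp4 both wt arrays were above both cKO arrays (23.7% of all tested). In Cxcl9 and Cxcl10 both wt arrays were below (16.4% of all tested), and the other measured genes of the list overlapped. Of the 15 measured genes of the list 6 were higher and 9 lower in cKO, with a median of -0.14, and they did not share a direction. Irf7 was at 10.06 and 10.10 in cKO, against 10.68 and 10.34 in wt, while Cxcl9 was at 11.73 and 11.90 in cKO, against 10.84 and 10.44 in wt (both chosen after their values were seen). The part of interferon-stimulated genes in the order of the arrays was not tested. Between litters, 0 of 51 genes passed (limma, litter 1 minus litter 2, 0.0265% of all tested, 0 of 51 at an unadjusted p under 0.05), and the smallest adjusted p was 0.8804, for Tap1, with a difference of 0.23. Litter 1 was the higher one for 37 of 51 genes (55% of all tested).

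Of the genes in 7 further lists, 77 of 105 had a measured probe set of their own, and 0 passed the adjusted threshold (0% of all probe sets tested). An unadjusted p under 0.05 was found for 4 of the 77 (9.38% of all tested), and 2 of the 77, Nfe2l2 and Irf8, passed the thresholds of the methods (1.41% of all tested). Nfe2l2, the antioxidant factor that can raise proteasome genes, read 11.27 and 11.59 in cKO, against 10.61 and 10.72 in wt. It was higher in both cKO mice by 0.77 ± 0.14 (SE, limma unadjusted p = 0.005013, adjusted p = 0.2959), and it met the thresholds of the methods. Nfe2l1, the factor that restores proteasome genes when degradation is blocked, differed by -0.02. The antioxidant response elements upstream of Psmb5 and Psmb6 were described above, and these genes differed by 0.13 and -0.04. The other members with the element, Calr, Pdia3, Psmc6, Psmd12 and Psmd9, differed by 0.09, 0.04, -0.06, -0.10 and 0.03. A link between Nfe2l2 and these differences was not tested.

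Psmg1, an assembly chaperone of the alpha ring, read 7.57 and 7.34 in cKO, against 7.84 and 7.74 in wt, a difference of -0.34 (unadjusted p = 0.0427, adjusted p = 0.5155). Pomp, the maturation factor of new barrels, differed by 0.11, and Usp14, a deubiquitinase bound to the regulatory particle, by -0.20 (adjusted p = 0.6015). Sem1, a small lid subunit, had the lowest difference of the lists, -0.43 ± 0.28 (SE). Its cKO arrays were at 9.28 and 9.25, against 9.31 and 10.07 in wt, so that only the wt mouse of litter 2 stood apart. Of the 9 genes measured in this list 7 were lower in cKO, with a median of -0.16.

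Among the trans-activators and interferon signalling genes 7 of 12 were higher in cKO, with a median of 0.04. Irf8, an interferon regulatory factor of the DC lineage, read 11.32 and 11.38 in cKO, against 10.25 and 10.18 in wt. The groups were far apart, with a difference of 1.13 ± 0.09 (SE), which met the thresholds of the methods. Its limma adjusted p was 0.1582 over all probe sets and 0.03449 with 1 probe set per gene, a fit that called 0.424% of all genes. Irf8 is also in the list of cDC1 markers, and the part of those cells in it was not tested. Nlrc5, the trans-activator of class I genes, read 11.25 and 11.09 in cKO, against 11.17 and 10.75 in wt, a difference of 0.22 ± 0.17 (SE, adjusted p = 0.7871). Irf1 differed by -0.08, Stat2 by -0.17 and Ifngr1, a chain of the interferon gamma receptor, by 0.17, and none of them passed.

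Of the class I heavy chains, 9 of 20 had a measured probe set of their own, and H2-K1 and H2-D1 were not among them. The 9 genes had a median difference of 0.00, with 4 higher and 5 lower in cKO and none at an unadjusted p under 0.05. H2-T24, a nonclassical heavy chain, read 9.96 and 10.14 in cKO, against 10.24 and 10.20 in wt, a difference of -0.17. H2-M2, another nonclassical chain, read 10.59 and 10.32 in cKO, against 10.49 and 9.85 in wt, a difference of 0.29 ± 0.25 (SE, adjusted p = 0.807). The peptidases of the cytosol and endosomes were similarly close, with 6 of 9 lower in cKO and a range from -0.18 (Rnpep) to 0.14 (Lap3).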

How the data were processed

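The deposited table holds log2 values, which the authors computed by robust multichip averaging (RMA) with GC correction in Partek, and mm9 is the build in the submitters' processing notes. The methods name an exon 1.0 ST array, whereas the platform annotation is that of a gene 1.0 ST array. Of 35399 probe sets, 18889 with a log2 value of at least 6.5 on 1 or more arrays were tested, and probe sets with several symbols were not named. Array medians lay between 6.58 and 6.62. The number of arrays limits the precision.

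Groups were compared with limma (version 3.58.1, R 4.3.3; lmFit and eBayes, two-sided) and Benjamini-Hochberg adjustment over all tested probe sets. The limma test stands in for the one-way test of the methods. Its p-values, SE and intervals use the spread between 2 mice per group, moderated towards that of all tested probe sets. The prior had 2.203 degrees of freedom and the residual had 2. The fit was tested on simulated data. Littermates deviated together (r = 0.27 across probe sets, which are not replicates), and the labels give the litters, so litter was a block in an alternative. Alternatives also covered filters, normalization, the probe set used and leaving out each mouse.

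Named genes were the catalytic subunits, activators and class I genes, the members with the 2 highest and 2 lowest differences in each other role, and in each list those past a threshold or with the smallest p. The members, lists and this rule were chosen with earlier results of these data known. RefSeq tables (GRCm38.p6) gave names and promoter sequences. Protein sequences were not used here.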

Additional observations from a re-analysis of the deposited data

Results flagged for a closer look

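For 3 genes the genotype difference had opposite signs in the 2 litters, by at least 0.1 on the log2 scale in each. The share of all probe sets that meet this rule was not counted. Opposite signs of any size were as common in the 51 genes (43.1%) as in all probe sets (42.3%). Psmb5 was -0.13 (cKO minus wt) in litter 1 and 0.39 in litter 2, Psmd14 was -0.13 in litter 1 and 0.15 in litter 2, and Psmd10, an assembly chaperone known as gankyrin, was -0.12 in litter 1 and 0.15 in litter 2. The difference between litters was not tested for them, since each litter holds 1 mouse per genotype. In all 3 the wt mouse of litter 1 was the highest array and the wt mouse of litter 2 the lowest, with both cKO mice between them. This order follows in part from the signs by which the genes were flagged.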

How the results depend on the processing

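The count of genes called stayed at 0 of 51 with the litter as a block, without a filter, with a filter at 7.5, with 1 probe set per gene, with the mean of a gene's probe sets, after quantile normalization or median centring and without each mouse in turn. Smallest adjusted p ran from 0.2197 (without the wt mouse of litter 1) to 0.9999 (without the cKO mouse of litter 2). With the litter as a block, which follows the pairing of the labels, 0 of 51 passed (smallest adjusted p 0.5211), 0 of the 77 further genes passed (0.2521), and the difference of the catalytic gap was -0.03 in litter 1 and -0.16 in litter 2. With 1 probe set per gene, 1 of the 77 further genes was called, Irf8 (0.424% of all genes in that fit), where 9894 in place of 18889 tests were adjusted for. Without single mice the catalytic gap ran from -0.15 to -0.04, the median of the 51 genes from -0.12 to 0.00, and the sign of 4 to 12 uncalled differences changed. Quantile normalization and centring changed 2 signs each. The methods' one-way test gave 3 genes an unadjusted p under 0.05 (Psmb8, Psmc3 and Tap2, against 8.24% of all probe sets) and 0 after Benjamini-Hochberg adjustment. Leaving out a mouse assumes that the lone one varies like the other genotype.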

Other observations

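Genes that deliver substrates to the proteasome and antigen to cross-presentation had few differences of note. Vcp, the segregase that extracts ubiquitinated proteins, read 10.78 and 10.72 in cKO, against 10.93 and 10.97 in wt, a difference of -0.20 ± 0.08 (SE, limma adjusted p = 0.5864). Both cKO mice were lower than both wt mice. Wdfy4, which is needed for cross-presentation by cDC1, read 12.31 and 12.29 in cKO, against 12.55 and 12.63 in wt, a difference of -0.29 ± 0.09 (SE, unadjusted p = 0.02436, adjusted p = 0.4575). It was lower while 9 of 10 cDC1 markers were higher in cKO. Over the 12 measured genes of the cross-presentation list the median difference was -0.02, with 5 higher and 7 lower in cKO.

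The folding and quality control genes of the endoplasmic reticulum, where class I molecules are assembled, were 9 higher and 10 lower in cKO, with a median of -0.01. Mogs, the glucosidase that starts the trimming of glycans, was at 7.70 and 7.72 in cKO, against 7.95 and 7.89 in wt, a difference of -0.21 (adjusted p = 0.5536), and Bcap31, an export receptor of class I, was at 11.22 and 11.38 in cKO, against 11.31 and 10.85 in wt, a difference of 0.22 (adjusted p = 0.8034). The cKO arrays of Mogs lay below those of wt, and those of Bcap31 overlapped them.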
